A study of Mus musculus with 9 samples.

Results

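The Cyp2 genes encode a large family of cytochromes P450, and 44 of them were followed here among the 22180 genes measured in the livers of 9 mice. A gene was included when its array probe set carried a single symbol made of Cyp2, a subfamily letter and a number. Cyp2b10, Cyp2c29 and Cyp2d9 were left out of the set, and where a gene had several probe sets the one with the highest mean over the 9 arrays was taken. The members fell into 13 genes of the Cyp2c, 8 of the Cyp2d, 7 of the Cyp2j, 4 of the Cyp2a and 4 of the Cyp2b subfamily, with Cyp2e1, Cyp2f2, Cyp2g1, Cyp2r1, Cyp2s1, Cyp2t4, Cyp2u1 and Cyp2w1 as the 1 measured gene each of theirs.

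Cyp2 enzymes are heme proteins of the endoplasmic reticulum that take electrons from cytochrome P450 reductase, with cytochrome b5 as a helper, and insert an oxygen atom into drugs, steroids, fatty acids and bile acids. In the liver their genes are read under the control of nuclear receptors such as CAR, PXR and HNF4 alpha, and several differ between the sexes through growth hormone signalling. The corepressors SMRT and NCoR are recruited by nuclear receptors and reduce transcription of the bound genes. By its title, the study concerns the separate roles of both corepressors in thyroid hormone signalling.

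Each array held RNA from the liver of 1 female mouse of mixed 129SV/B6 background, aged 7 to 9 weeks, euthyroid and fed standard chow. The 3 control mice carried floxed alleles of both SMRT and NCoR with no deletion, the 3 SMRT KO mice had a deletion of SMRT restricted to liver, and the 3 double KO mice one of both corepressors. The labels name neither the transgene that drove the deletion nor the NCoR allele of the SMRT KO mice, and no group lacked NCoR alone. The rows of the 2 targeted genes were not analysed here, so the genotypes rest on the labels. Values are log2 expression on the RMA scale, in which a difference of 1 is a doubling. Precision is limited by there being 3 mice per group.

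The arrays resembled each other closely, with correlations of 0.987 to 0.992 within and 0.983 to 0.989 between groups over all probe sets. All 12 measured hepatocyte markers lay above background. Background was set at 5.96, the level below which 95% of 1394 olfactory and vomeronasal receptor genes lay. The mean of the hepatocyte markers was 12.76 to 12.79 in double KO livers, under the 12.90 to 12.93 of controls and the 12.86 to 12.93 of SMRT KO livers. The mean of the 12 macrophage markers was 8.53 to 8.80 in SMRT KO livers, 8.32 to 8.55 in controls and 8.31 to 8.50 in double KO livers. In double KO livers 10 of 12 hepatocyte markers had a log2 fold change below 0 against control (83.3%, beside 48.6% of all genes), with a median of -0.11. Serpina1a fell by 0.47 on the log2 scale (limma adjusted p = 0.0251). It was the 1 of the 12 with an adjusted p under 0.05 (8.33%, beside 0.843% of all genes). Among the 11 stellate cell markers Lrat fell in double KO against control livers (log2 fold change -1.80, limma adjusted p = 4.0e-04). It was the 1 with an adjusted p under 0.05 (9.09%, beside 0.843% of all genes). The 11 went both ways, 7 below 0 and 4 above 0, with a median of -0.19 and Col3a1 highest at 0.31. Their list means, with Lrat included, were 7.87 to 8.14 in double KO and 8.10 to 8.30 in control livers. The 10 endothelial markers averaged 9.08 to 9.20 in control, 9.20 to 9.37 in SMRT KO and 9.08 to 9.35 in double KO livers. The measured cholangiocyte (5), lymphocyte (9) and lung and gut epithelium (8) markers, of which 4 in each list were above background, averaged between 5.63 and 6.10 on every array. The part of these shifts in the results below was not tested, and fewer cells of a type and less RNA per cell cannot be told apart in whole liver.

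Of the 44 Cyp2 genes 32 had a mean above background. The other 12 were Cyp2b19, Cyp2b23, Cyp2c65, Cyp2c66, Cyp2d11, Cyp2d12, Cyp2d34, Cyp2j8, Cyp2j11, Cyp2j12, Cyp2j13 and Cyp2t4, with group means between 3.14 and 5.71. Several of these are known mainly from other tissues, Cyp2b19 from skin and Cyp2c65 and Cyp2c66 from gut. In each of the 3 comparisons 0 of these 12 passed the test described below, and 1 had an unadjusted p under 0.05 in limma.

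The promoters of Cyp2d40, Cyp2c38 and Cyp2c70, which passed the test described below, are given first, together with that of Cyp2c55. The chosen probe set of Cyp2c55 did not pass, and its other probe set passed in a separate fit. These sequences lie at the start of the genes that the results turn on. RefSeq held promoter windows for 36 of the 44 genes, each 300 bases long, from 250 before to 50 after an annotated start (GRCm38.p6). Capitals mark the hexamer AGGTCA, the core element that nuclear receptors bind, or its reverse complement TGACCT. The Cyp2d40 window is chr15:82764073-82764372, the Cyp2c38 window chr19:39463026-39463325 and the Cyp2c70 window chr19:40187237-40187536, all on the minus strand, and the Cyp2c55 window is chr19:39006769-39007068 on the plus strand.
Cyp2d40: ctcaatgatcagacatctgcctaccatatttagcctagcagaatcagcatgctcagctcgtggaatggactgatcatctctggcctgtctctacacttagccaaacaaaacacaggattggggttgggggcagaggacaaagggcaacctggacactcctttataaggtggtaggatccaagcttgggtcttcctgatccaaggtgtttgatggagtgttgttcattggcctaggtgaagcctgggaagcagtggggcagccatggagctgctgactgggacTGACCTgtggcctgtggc
Cyp2c38: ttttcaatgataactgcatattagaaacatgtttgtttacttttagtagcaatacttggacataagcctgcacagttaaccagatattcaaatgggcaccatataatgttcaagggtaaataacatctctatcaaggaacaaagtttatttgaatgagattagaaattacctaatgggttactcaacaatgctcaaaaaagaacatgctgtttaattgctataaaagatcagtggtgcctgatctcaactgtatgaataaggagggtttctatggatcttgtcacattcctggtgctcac
Cyp2c70: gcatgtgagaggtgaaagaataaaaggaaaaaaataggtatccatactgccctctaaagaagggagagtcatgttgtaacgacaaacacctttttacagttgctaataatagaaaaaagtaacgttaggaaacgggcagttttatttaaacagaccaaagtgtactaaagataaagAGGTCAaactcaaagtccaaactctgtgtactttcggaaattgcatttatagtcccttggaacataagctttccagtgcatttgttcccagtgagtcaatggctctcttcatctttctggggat
Cyp2c55: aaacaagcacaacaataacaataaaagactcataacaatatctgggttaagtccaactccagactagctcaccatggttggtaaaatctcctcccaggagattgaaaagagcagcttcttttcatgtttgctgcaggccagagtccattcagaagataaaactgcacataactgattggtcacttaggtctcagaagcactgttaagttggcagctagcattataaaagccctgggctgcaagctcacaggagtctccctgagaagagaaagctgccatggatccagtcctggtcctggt

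On both strands, AGGTCA was present in 12 of the 38 windows of Cyp2 genes (31.6%) and in 16.3% of all 32851 promoter windows of this length. Some of the 12 are near copies, with 99.3% identity between Cyp2b9 and Cyp2b13 and 97.7% between Cyp2a4 and Cyp2a5. AGGTCA lay once in the Cyp2c70 window, before the annotated start, and once in the Cyp2d40 window, after it. These letters are not in the Cyp2c38 and Cyp2c55 windows. Direct repeats of the hexamer with 1 base (DR1) or 4 bases (DR4) between the copies were in 0 Cyp2 windows and in 0.0396% and 0.0152% of all windows. The STAT letters TTCNNNGAA were in 2 Cyp2 windows, those of Cyp2j11 and Cyp2j12 (5.26%, against 8.30% of all windows), and the same letters with 4 bases in the gap were in 0 (6.95% of all). These are matches of letters, and binding was not measured.

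In SMRT KO livers no Cyp2 gene passed the test against control. All genes were fitted together with limma and p-values were adjusted over the 22180 genes by the Benjamini-Hochberg method. At an adjusted p under 0.05, 0 of 44 members passed, and 1 gene in all did (0.00451%). At an unadjusted p under 0.05 limma counted 7 members (15.9%), beside 1331 of all 22180 genes (6.0%). The median log2 fold change of the members was 0.040, beside 0.00087 for all genes. For the 32 members above background it was 0.0075, beside 0.0038 for all such genes. In 8 of the 44 genes (18.2%) the 3 SMRT KO values did not overlap the 3 control values, 4 higher and 4 lower. Over all genes that share was 8.16%.

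The members with the smallest p in this comparison were Cyp2c39, Cyp2c70, Cyp2a22, Cyp2c23 and Cyp2c69. Cyp2c39, a retinoic acid hydroxylase, read 8.44, 8.60 and 8.86 in control and 8.16, 8.10 and 8.16 in SMRT KO livers. Every SMRT KO value lay under every control value. The log2 fold change was -0.50 (SE 0.126, limma adjusted p = 0.505). Cyp2c69 had a log2 fold change of -0.31 (adjusted p = 0.826). Cyp2c23, an arachidonic acid epoxygenase, stood at 12.45, 12.53 and 12.45 in control and at 12.67, 12.74 and 12.68 in SMRT KO livers, a difference of 0.22 at an adjusted p of 0.8. Its groups did not overlap either, in the opposite direction to Cyp2c39.

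In double KO livers 2 Cyp2 genes fell against control, Cyp2d40 and Cyp2c38, and none of the chosen probe sets rose. These are 4.55% of the members, beside 0.843% of all genes that passed in this comparison (187 genes, 0.320% lower and 0.523% higher). At an unadjusted p under 0.05 limma counted 16 members (36.4%), beside 10.8% of all genes. The median log2 fold change over the 44 members was -0.064, beside 0.0036 for all genes. A size over 0.5 on the log2 scale was reached by 9 members (20.5%) and by 2.58% of all genes. In 20 members (45.5%) the double KO and control values did not overlap, 14 lower and 6 higher, beside 15.0% of all genes. Among genes above background the groups did not overlap in 18 of the 32 members (56.25%), beside 19.1% of all such genes.

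**Figure D1:**
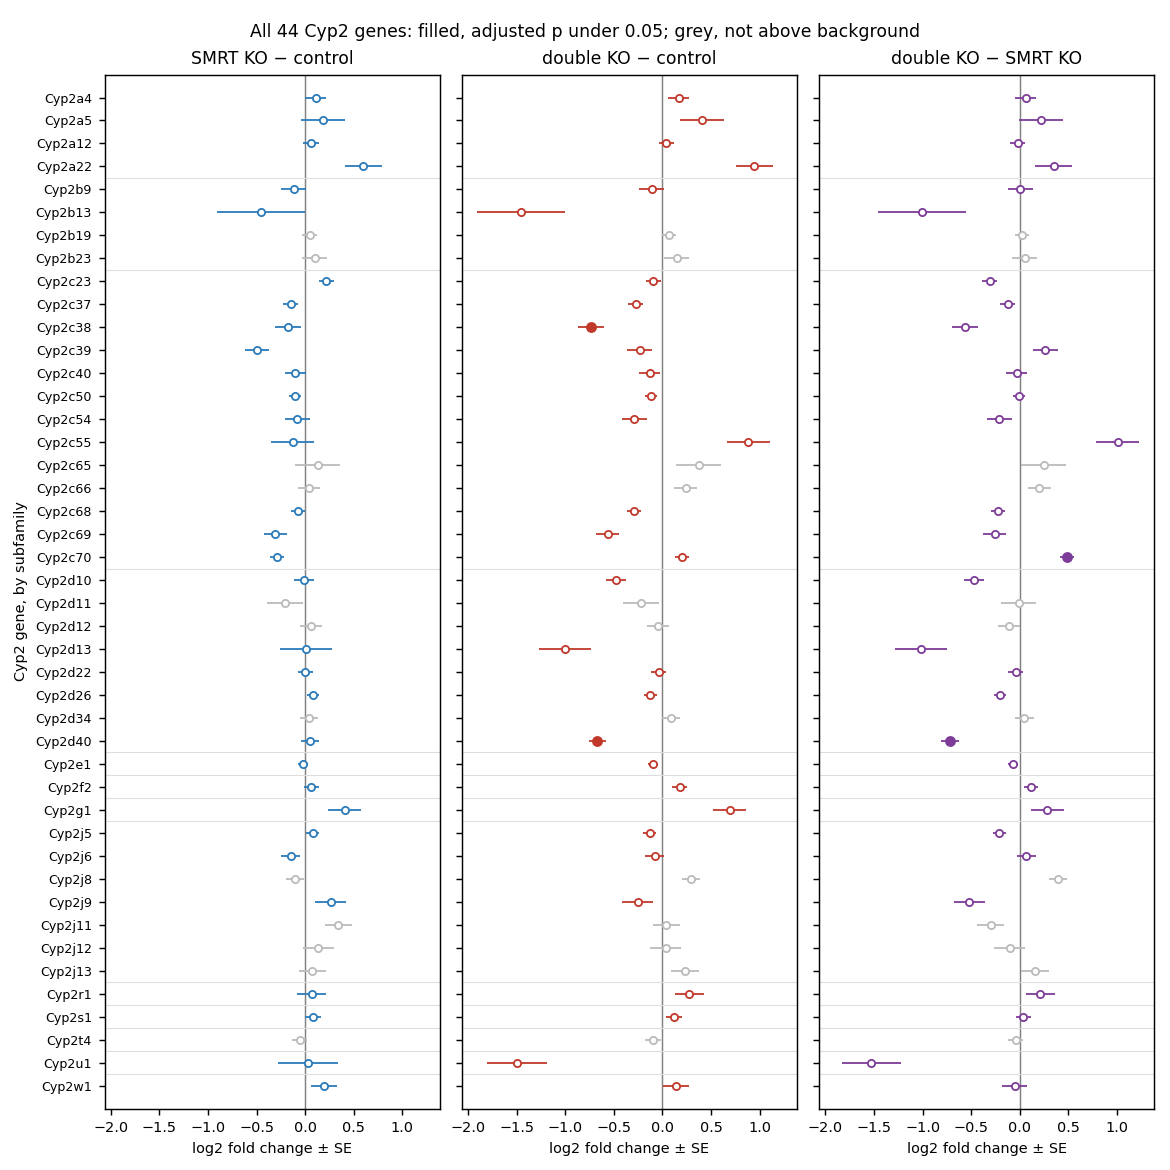
Log2 fold change (x axis, with standard error from limma) of all 44 Cyp2 genes (y axis, by subfamily) in the 3 comparisons. Filled points passed an adjusted p of 0.05 and grey points are genes not above background. Cyp2d40 is filled in both comparisons with double KO livers, at -0.67 and -0.72, Cyp2c38 in the middle panel at -0.74 and Cyp2c70 in the right panel at 0.49.

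By their labels, double KO livers differ from SMRT KO livers in the deletion of NCoR. Here 1 Cyp2 gene was higher, Cyp2c70, and 1 lower, Cyp2d40, together 4.55% of the members. Over all genes 1.19% passed, 0.748% higher and 0.437% lower. At an unadjusted p under 0.05 limma counted 13 members (29.5%), beside 10.5% of all genes. Values did not overlap between these groups in 21 members (47.7%), 8 higher and 13 lower in double KO livers, beside 13.8% of all genes. The median was -0.026, beside 0.0017 for all genes. This comparison shares the double KO arrays with the one before it, so the values of Cyp2d40 in both are not separate evidence.

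Of the 8 Cyp2d genes, all on chromosome 15, 1 fell in double KO against control livers (Cyp2d40), 0 rose and 7 did not pass. The called gene is 12.5% of the 8, beside 0.843% of all genes. Of the 8, 7 had a log2 fold change below 0 (87.5%, beside 48.6% of all genes), with a median of -0.17. Cyp2d11, Cyp2d12 and Cyp2d34 were not above background, and Cyp2d34 was the 1 above 0. In SMRT KO livers 2 of 8 were below 0 (25%, beside 49.6% of all genes), with a median of 0.027. Cyp2d enzymes oxidise many nitrogen-containing drugs.

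Cyp2d40 read 7.87, 7.81 and 7.93 in control, 7.80, 8.09 and 7.86 in SMRT KO and 7.15, 7.32 and 7.13 in double KO livers. The 3 double KO livers were the lowest of all 9, with a gap to the rest, and control and SMRT KO livers overlapped. Cyp2d40 fell 1.59-fold against control (log2 fold change -0.67, standard error 0.0903, 95% interval -0.87 to -0.47, limma adjusted p = 0.0119). Against SMRT KO it fell 1.64-fold (log2 fold change -0.72, SE 0.0903, adjusted p = 0.00668). The fall against SMRT KO passed without each of the 9 mice in turn (adjusted p up to 0.035). The fall against control did not pass without control replicate 3 (adjusted p = 0.0576), double KO replicate 1 (0.0561) or double KO replicate 3 (0.0529).

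Cyp2d10 showed 9.72, 9.57 and 9.67 in control, 9.59, 9.58 and 9.78 in SMRT KO and 9.25, 8.96 and 9.32 in double KO livers. The double KO values again lay under all others. Its log2 fold change was -0.48 against control (standard error 0.103, limma adjusted p = 0.0822) and -0.47 against SMRT KO (adjusted p = 0.0737), neither of which passed. Cyp2d13, annotated by RefSeq as a transcribed pseudogene, read 12.32, 12.17 and 12.30 in control, 12.40, 12.26 and 12.16 in SMRT KO and 11.53, 10.48 and 11.75 in double KO livers. The 3 double KO values were the lowest and lay far apart (SD 0.680), with replicate 2 more than 1 log2 unit under the other mice. The difference from control was -1.01 (SE 0.268, adjusted p = 0.178). Cyp2d22 (log2 fold change -0.038, 95% interval -0.21 to 0.13) and Cyp2d26 (-0.12, 95% interval -0.27 to 0.02) gave small values in the same livers. Cyp2d9, a male-biased Cyp2d gene that is not among the 44, read 8.16, 7.66 and 8.24 in control, 8.16, 8.10 and 7.72 in SMRT KO and 5.78, 5.83 and 6.44 in double KO livers. Its double KO values of 5.78 and 5.83 lie under the background level of 5.96. Cyp2d9 was named after its values were seen and enters none of the counts of members. Cyp2b10 and Cyp2c29, which were also left out, are not shown, so Cyp2d9 does not stand for the genes left out. The probe sequences were not analysed here, so signal may be shared between near-identical genes of a subfamily.

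In the Cyp2c subfamily, Cyp2c38 fell in double KO against control livers and Cyp2c70 rose in double KO against SMRT KO livers. Against control the other 12 of its 13 members did not pass. Of the 13, 9 had a log2 fold change below 0 (69.2%, beside 48.6% of all genes), with a median of -0.13. At an unadjusted p under 0.05 limma counted 7 (53.8%, beside 10.8% of all genes). In SMRT KO livers 10 of 13 were below 0 (76.9%, beside 49.6% of all genes), with a median of -0.11. There 0 passed, and 4 had an unadjusted p under 0.05 in limma (30.8%, beside 6.0% of all genes). Of the 13, 11 were above background. Many Cyp2c enzymes of the mouse convert arachidonic and linoleic acid to epoxides and hydroxy acids.

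Cyp2c38, an arachidonic acid epoxygenase, read 12.67, 12.69 and 12.86 in control, 12.83, 12.24 and 12.62 in SMRT KO and 11.99, 11.91 and 12.11 in double KO livers. All 3 double KO livers lay under the other 6, while the SMRT KO livers spread across the control range and below it. Cyp2c38 fell 1.67-fold against control (log2 fold change -0.74, standard error 0.134, 95% interval -1.04 to -0.43, limma adjusted p = 0.0438). Against SMRT KO the log2 fold change was -0.56 and did not pass (adjusted p = 0.107). The call against control was close to the threshold. It was lost without any of the control or double KO mice and without SMRT KO replicate 3 (adjusted p 0.0707 to 0.182), and after cyclic loess (0.0518).

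Cyp2c70, which makes the muricholic acids that set mouse bile acids apart from those of humans, separated all 3 groups. It read 12.58, 12.51 and 12.65 in control, 12.30, 12.37 and 12.19 in SMRT KO and 12.72, 12.85 and 12.76 in double KO livers. SMRT KO livers were the lowest, controls lay between, double KO livers were the highest, and no group overlapped another. Cyp2c70 rose 1.4-fold in double KO over SMRT KO livers (log2 fold change 0.49, standard error 0.0727, 95% interval 0.32 to 0.65, limma adjusted p = 0.0147). Neither knockout passed against control, with log2 fold changes of -0.29 in SMRT KO (adjusted p = 0.505) and 0.20 in double KO livers (adjusted p = 0.349). The difference between the knockouts missed the threshold when SMRT KO replicate 1 was left out (adjusted p = 0.057), and likewise double KO replicate 2 (0.0786) or double KO replicate 3 (0.0505). It also missed when the control arrays were left out of the model (0.0508).

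**Figure D2:**
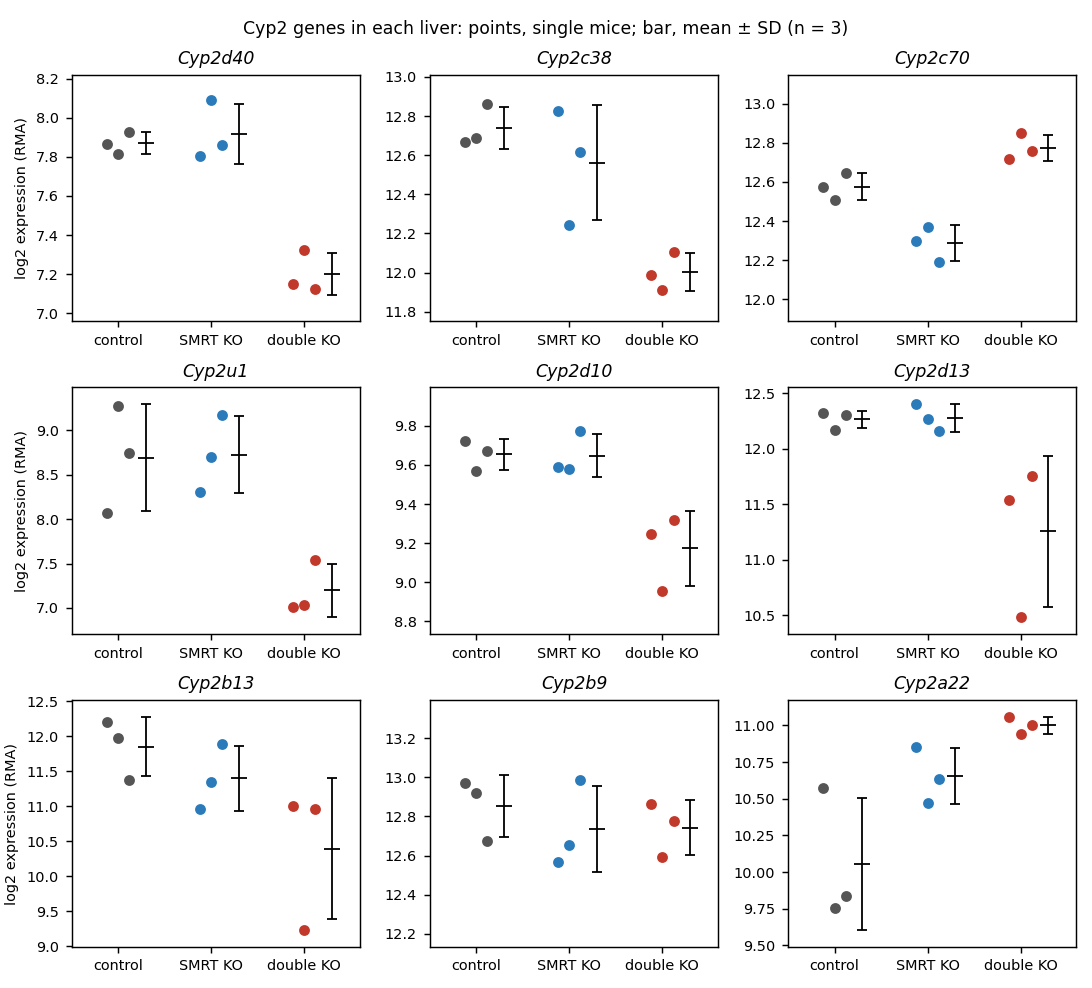
Log2 expression (y axis) of 9 Cyp2 genes in each liver by group (x axis, 3 mice each), with the mean and standard deviation beside the points. The y axes differ between panels. Cyp2d40 and Cyp2c38 lie lowest in double KO livers, and the 3 groups of Cyp2c70 are apart. Double KO replicate 2 stands far under its group in Cyp2d13 (10.48) and Cyp2b13 (9.23).

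Cyp2c55, an enzyme known to respond to activators of CAR and PXR, gave very different sizes in its 2 probe sets. On the probe set with the higher mean it read 8.71, 8.30 and 8.63 in control, 8.24, 8.90 and 8.12 in SMRT KO and 9.49, 9.71 and 9.09 in double KO livers. The double KO values were above all others, and the log2 fold change was 0.88 against control (standard error 0.220, limma adjusted p = 0.139) and 1.01 against SMRT KO (adjusted p = 0.0737), neither of which passed. The other probe set read 8.05, 6.62 and 7.52 in control, 7.38, 7.84 and 7.94 in SMRT KO and 10.65, 11.17 and 10.51 in double KO livers. There the double KO livers stood more than 2 log2 units over every other liver. In a fit over all 25335 annotated probe sets this probe set rose 10.4-fold over control (log2 fold change 3.38, standard error 0.329, 95% interval 2.64 to 4.13, adjusted p = 0.00344) and 8.33-fold over SMRT KO (log2 fold change 3.06, adjusted p = 0.0044). Both differences passed without each of the 9 mice in turn (adjusted p up to 0.0263). With the mean of both probe sets Cyp2c55 rose by 2.13 on the log2 scale against control (adjusted p = 0.00515). The regions of the gene that the probe sets cover were not analysed here, and the second probe set was singled out after its values were seen.

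**Figure D3:**
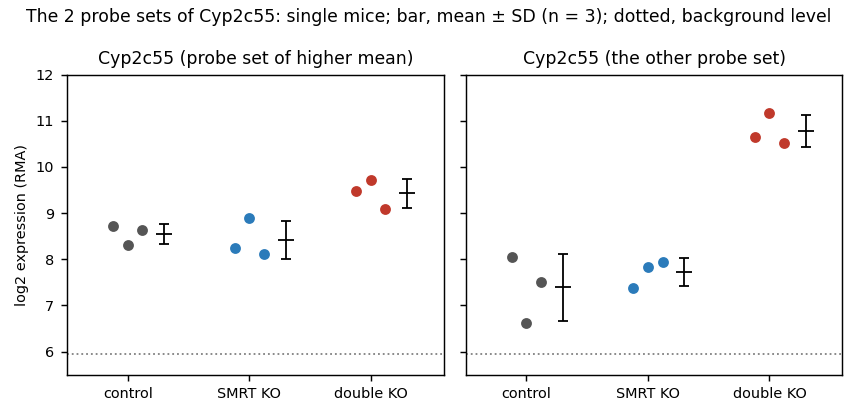
Log2 expression (y axis) of Cyp2c55 on its 2 probe sets, in each liver by group (x axis, 3 mice each, with the mean and standard deviation beside the points). The dotted line is the background level of 5.96. Double KO livers read 9.09 to 9.71 on the left and 10.51 to 11.17 on the right, against 6.62 to 8.05 for the control livers on the right.

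Of the remaining Cyp2c genes, Cyp2c69 read 12.39, 12.52 and 12.75 in control and 11.93, 11.97 and 12.07 in double KO livers, with no overlap, a log2 fold change of -0.56 and a limma adjusted p of 0.0838. Cyp2c68, Cyp2c37 and Cyp2c54 had log2 fold changes of -0.29, -0.27 and -0.29 against control (adjusted p = 0.136, 0.206 and 0.456). For Cyp2c50 the difference was -0.12 (95% interval -0.26 to 0.03), for Cyp2c40, a female-biased gene, -0.13 (95% interval -0.37 to 0.10), and for Cyp2c39 -0.23 (adjusted p = 0.568). Cyp2c23 was lower in double KO than in SMRT KO livers by 0.31 in the mean, with no overlap and an adjusted p of 0.135. Along chromosome 19 in RefSeq order, Cyp2c55, Cyp2c65 and Cyp2c66 came first, with log2 fold changes above 0 in double KO against control livers. The next 8 genes, from Cyp2c39 to Cyp2c50, were below 0 in that comparison. Cyp2c65 and Cyp2c66 were not above background. A probe set naming both Cyp2c67 and Cyp2c68 had a log2 fold change of -0.18 (adjusted p = 0.604).

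**Figure D4:**
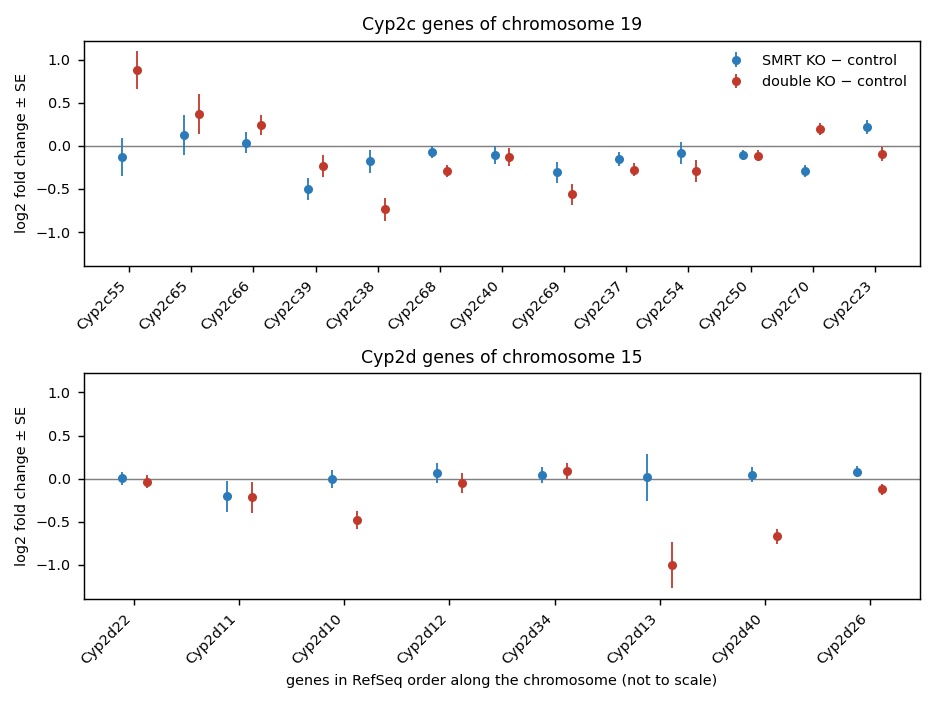
Log2 fold change against control (y axis, with standard error from limma) of the Cyp2c genes of chromosome 19 and the Cyp2d genes of chromosome 15, in RefSeq order (x axis, not to scale). Both comparisons share the 3 control livers. In double KO livers Cyp2c55 (0.88) stands at one end of the Cyp2c row, and Cyp2d10 (-0.48), Cyp2d13 (-1.01) and Cyp2d40 (-0.67) are the low points of the Cyp2d row.

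In the Cyp2a and Cyp2b subfamilies 0 genes passed in any comparison. At an unadjusted p under 0.05 limma counted 1 gene of each in double KO against control livers. The median log2 fold change of the 4 Cyp2a genes was 0.15 in SMRT KO and 0.29 in double KO livers, against the same 3 control livers. Cyp2a22 read 10.57, 9.76 and 9.83 in control, 10.85, 10.47 and 10.63 in SMRT KO and 11.06, 10.94 and 11.01 in double KO livers. Double KO livers were above all others, and SMRT KO livers overlapped the controls through control replicate 1. Its difference from control was 0.95 in double KO livers (standard error 0.193, limma adjusted p = 0.0676) and 0.60 in SMRT KO livers (adjusted p = 0.75). The double KO difference passed under 5 of 19 alternatives, with adjusted p from 0.00422 (without control replicate 1) to 0.226 (without control replicate 3) over all 19. Cyp2a5, the coumarin hydroxylase, read 10.68, 9.90 and 10.98 in control and 10.84, 10.95 and 10.97 in double KO livers. Control replicate 2 was low and the groups overlapped (log2 fold change 0.41, adjusted p = 0.584). Without that mouse the SMRT KO value of Cyp2a5 went from 0.19 to -0.12. Cyp2a4, a female-biased steroid hydroxylase, had 0.17 (95% interval -0.08 to 0.41), and Cyp2a12, which hydroxylates steroids and bile acids, 0.039 (95% interval -0.14 to 0.21).

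The female-biased genes Cyp2b9 and Cyp2b13 share almost the same promoter, and neither passed. Their RefSeq windows, both on the plus strand of GRCm38.p6, are chr7:26173159-26173458 for Cyp2b9 and chr7:26061245-26061544 for Cyp2b13. They are identical at 298 of 300 positions, and capitals mark the 2 that differ, T48C and C104T, with the Cyp2b9 base first and positions counted from 1 at the 5′ end of the window.
Cyp2b9: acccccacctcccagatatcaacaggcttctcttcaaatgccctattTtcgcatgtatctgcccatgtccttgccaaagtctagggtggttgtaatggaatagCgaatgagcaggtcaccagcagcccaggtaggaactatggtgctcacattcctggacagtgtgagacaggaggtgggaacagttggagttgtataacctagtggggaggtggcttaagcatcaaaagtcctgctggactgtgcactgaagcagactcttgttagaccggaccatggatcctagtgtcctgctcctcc
Cyp2b13: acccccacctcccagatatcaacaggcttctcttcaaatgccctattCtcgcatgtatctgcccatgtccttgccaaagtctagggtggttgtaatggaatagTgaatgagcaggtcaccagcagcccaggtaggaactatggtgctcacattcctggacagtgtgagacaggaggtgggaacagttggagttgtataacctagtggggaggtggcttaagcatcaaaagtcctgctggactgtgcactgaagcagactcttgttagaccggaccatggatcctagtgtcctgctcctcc

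Cyp2b13 read 12.20, 11.98 and 11.38 in control, 10.97, 11.35 and 11.89 in SMRT KO and 11.00, 9.23 and 10.96 in double KO livers. Every double KO value was under every control value, while SMRT KO livers overlapped both. The log2 fold change against control was -1.46 (SE 0.453, limma adjusted p = 0.25). Double KO livers spread more in Cyp2b13 (SD 1.01) than in any other member above background. Cyp2b9 read 12.97, 12.92 and 12.67 in control and 12.86, 12.59 and 12.78 in double KO livers, where it overlapped (log2 fold change -0.11, 95% interval -0.40 to 0.17). Whether the 2 genes differ in their change was not tested. Of 4 genes labelled here as female-biased (Cyp2a4, Cyp2b9, Cyp2b13 and Cyp2c40), 0 passed in any comparison. In double KO against control livers 1 had an unadjusted p under 0.05 (limma), and their median was -0.12. The 4 were chosen by hand, and the other members were not checked for female bias. The next most alike windows were those of Cyp2a4 and Cyp2a5 (97.7% identity in a global alignment) and of Cyp2c68 and Cyp2c69 (91.1%).

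Cyp2u1, which hydroxylates long-chain fatty acids and is male-biased in mouse liver, had the lowest log2 fold change of the 44 genes in double KO livers. It read 8.06, 9.27 and 8.74 in control, 8.30, 8.69 and 9.17 in SMRT KO and 7.01, 7.04 and 7.55 in double KO livers. The double KO livers lay under the other 6, and the control and SMRT KO livers covered the same wide range. The mean was 2.82-fold lower than in control (log2 fold change -1.50, standard error 0.308, 95% interval -2.19 to -0.80, limma adjusted p = 0.0707) and 2.88-fold lower than in SMRT KO livers (log2 fold change -1.53, adjusted p = 0.0545), and neither passed. The call moved with the settings, and 7 of 19 alternatives put the second difference under an adjusted p of 0.05.

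Among the single-gene subfamilies, Cyp2e1 and Cyp2f2 are the P450s of opposite liver zones. Cyp2e1, which oxidises ethanol and acetaminophen near the central vein, read 13.66, 13.68 and 13.64 in control and 13.57, 13.55 and 13.57 in double KO livers. The groups did not overlap, but the difference was only -0.10 (95% interval -0.22 to 0.02, limma adjusted p = 0.585). These values lie close to the top of the scale, where the highest value of an array was 14.04 to 14.09. Cyp2f2, the naphthalene-oxidising P450 of the portal zone, had a log2 fold change of 0.18 (95% interval 0.01 to 0.34, adjusted p = 0.437). Of 14 other pericentral genes 2 fell in double KO livers against control, Gulo (log2 fold change -0.64, adjusted p = 0.00508) and Cyp1a2 (-0.41, adjusted p = 0.0239), and 0 rose, with a median of -0.23. Of 11 measured periportal genes 2 fell, Pck1 (-0.68, adjusted p = 0.00395) and Etnppl (-1.32, adjusted p = 0.0389), and 0 rose, with a median of -0.078. The called genes were 14.3% of the pericentral and 18.2% of the periportal list, beside 0.843% of all genes. Unadjusted limma p-values under 0.05 numbered 7 (50%) and 4 (36.4%) in the same comparison, beside 10.8% of all genes. In SMRT KO livers 0 genes of either list passed (2 and 1 at an unadjusted p under 0.05 in limma), with medians of -0.084 and 0.020.

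Cyp2g1, known from olfactory mucosa, was above background and read 6.96, 6.62 and 7.31 in control and 7.58, 7.50 and 7.88 in double KO livers. It did not overlap and did not pass (log2 fold change 0.69, limma adjusted p = 0.129). Cyp2j5, an arachidonic acid epoxygenase of liver and kidney, read 12.71, 12.72 and 12.75 in control, 12.80, 12.80 and 12.81 in SMRT KO and 12.57, 12.51 and 12.71 in double KO livers. The 3 groups did not overlap, although 1 control and 1 double KO value both round to 12.71. The differences were 0.077 in SMRT KO and -0.13 in double KO livers (adjusted p = 0.922 and 0.521). Of 7 Cyp2j genes 0 passed in any comparison (1, 1 and 3 at an unadjusted p under 0.05 in limma), and 4 were not above background. Cyp2r1, a vitamin D hydroxylase, had 0.28 in double KO livers (95% interval -0.06 to 0.61). Cyp2s1 had 0.12 (adjusted p = 0.667) and Cyp2w1 0.14 (adjusted p = 0.787), both genes known mainly from tissues outside the liver.

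Among the 32 genes above background, double KO replicate 2 was the lowest of its group in 20 and double KO replicate 3 the highest in 21. Each control mouse was the lowest of its group in 8 to 13 genes and the highest in 8 to 13. Each SMRT KO mouse was the lowest in 8 to 14 and the highest in 10 or 11. These ranks were not counted over all genes, so whether they are particular to Cyp2 genes was not tested. The median SD of these genes was 0.107 in control, 0.102 in SMRT KO and 0.107 in double KO livers, beside 0.0936, 0.109 and 0.0832 for all genes above background. Without single mice the count of called Cyp2 genes in double KO against control livers was 0 (control replicate 3, double KO replicate 1 or 3), 1 (control replicate 2 or double KO replicate 2) or 3 (control replicate 1), against 2 with all mice. In double KO against SMRT KO it was 1 without SMRT KO replicate 1 or double KO replicate 2 or 3, and 4 without SMRT KO replicate 2.

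Of the genes that serve or control the Cyp2 enzymes, 2 passed in double KO against SMRT KO livers and 0 in either knockout against control. The 2 were 1 of 7 redox partners (14.3%) and 1 of 25 regulators (4%), beside 1.19% of all genes. There limma counted 2 redox partners (28.6%), 9 regulators (36%) and 1 of 9 heme genes (11.1%) at an unadjusted p under 0.05. Over all genes that unadjusted share was 10.5%. At an unadjusted p under 0.05 limma counted 3 of 7 redox partners, 1 of 9 heme genes and 7 of 25 regulators in double KO against control livers (42.9%, 11.1% and 28.0%), beside 10.8% of all genes. Among the 7 redox partners, Pgrmc2, a heme-binding partner of P450s, rose by 0.62 on the log2 scale in double KO over SMRT KO livers (limma adjusted p = 0.0299). Medians of the redox partners were -0.034 in SMRT KO and -0.014 in double KO livers against control. Of 9 genes of heme synthesis and breakdown 0 passed in the 3 comparisons (1 in each at an unadjusted p under 0.05 in limma), with medians of -0.064, -0.0083 and 0.046. For 25 nuclear receptors and other regulators of Cyp2 genes the medians against control were -0.039 in SMRT KO and -0.040 in double KO livers. Foxa3, a liver transcription factor, fell in double KO against SMRT KO livers (log2 fold change -0.75, adjusted p = 0.0396) and the other 24 did not pass.

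Among the 25 measured genes of the P450 families Cyp1, Cyp3 and Cyp4, 3 rose and 1 fell in double KO against control livers. These are 16.0% of the 25, beside 0.843% of all genes. With no adjustment, 9 of the 25 (36%) had a limma p under 0.05, beside 10.8% of all genes. Cyp3a59 (log2 fold change 1.89, limma adjusted p = 0.0054), Cyp3a25 (1.44, adjusted p = 0.00395) and Cyp3a11 (0.48, adjusted p = 0.0251) rose, and Cyp1a2 fell. Their median was 0.12, beside -0.064 for the Cyp2 genes. The difference between the families was not tested. In double KO against SMRT KO livers 2 of the 25 rose and 1 fell (12%, beside 1.19% of all genes). Against control, 0 of the 25 passed in SMRT KO livers.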

How the data were processed

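Liver RNA (200 ng per mouse) was labelled with biotin and hybridised to Affymetrix whole-transcript arrays. The deposited values are log2 expression per probe set, made by RMA per the submitters' processing notes. RMA ordinarily brings the arrays to 1 common distribution, after which a shift shared by most genes is not measured. The version of RMA and the genome build are not given in the sources used here. Of 41345 probe sets the platform annotation gave 23521 exactly 1 symbol and 1814 several, and did not list 16010. The probe set with the highest mean over the 9 arrays stood for a gene, which left 22180 genes with no filter on level.

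All 9 arrays entered 1 model of 3 groups with no block and 6 residual degrees of freedom (lmFit, contrasts.fit and two-sided eBayes of limma 3.58.1, R 4.3.3). A gene was called at a Benjamini-Hochberg adjusted p under 0.05 over all genes. With 3 mice against 3, the smallest p of an exact permutation test is 0.1. The steps were tested on simulated data. Alternatives were another probe set rule, a filter on dim genes, other normalizations and variance models, a replicate block and leaving out each mouse. All 44 members matched RefSeq genes by Entrez identifier, and promoter windows were compared with Biopython 1.88.

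The members and gene lists were chosen with earlier results of these data known. In full were named the called members, the 5 with the smallest p in each comparison among those above background in at least 1 of its groups, the member of highest mean in each subfamily above background, and 18 genes listed by name, 28 in all. Genes from other lists were named where they passed. Cyp2d13, Cyp2c68 and Cyp2d9 fall outside this rule and were named after their values were seen, without leave-one-out values.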

Additional observations from a re-analysis of the deposited data

Results flagged for a closer look

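The probe set of Cyp2c55 that was not the one of highest mean stood apart from the chosen one. It lies outside the count of called members, and its double KO values were above those of the control livers, with a log2 fold change of 3.38 against control and 3.06 against SMRT KO. In SMRT KO against control livers it had 0.33 (limma adjusted p = 0.916), and its range without single mice was -0.06 to 0.65. Of the 6 Cyp2 probe sets outside the 44 members and the 3 genes left out, it was the 1 that passed in any comparison.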

How the results depend on the processing

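In SMRT KO against control livers the count of called Cyp2 genes was 0 under all 19 alternatives. In double KO against control livers, 2 with all settings as given, it was 4 with dim genes left out, 1 after cyclic loess, 6 with array weights and 4 with the replicate block, and 0 to 3 without single mice. In double KO against SMRT KO livers, also 2, it was 5 with dim genes left out, 1 with only the 2 groups compared, and 1 to 4 without single mice. It was 3 there with the replicate block, which added Cyp2u1 (adjusted p = 0.0292). The labels share only replicate numbers between groups: deviations of same-numbered mice from their group means correlated at -0.0845 to 0.117, and in 8 of 18 matches of a mouse with another group the number was its own. Fewer genes tested, fewer mice or another weighting enter these counts by construction, and for cyclic loess the cause was not tested.

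Of 84 log2 fold changes of named genes, 16 changed sign when single mice were left out, and none of the 16 had passed the test. In SMRT KO against control livers the ranges were -0.12 to 0.42 for Cyp2a5, -0.37 to 0.021 for Cyp2c55, -0.071 to 0.027 for Cyp2d10, -0.053 to 0.064 for Cyp2d22, -0.039 to 0.10 for Cyp2d40, -0.081 to 0.23 for Cyp2r1 and -0.28 to 0.32 for Cyp2u1. The other Cyp2c55 probe set ran from -0.060 to 0.65 in that comparison, an alternative chosen after the data were seen. In double KO against control livers they were -0.011 to 0.067 for Cyp2a12, -0.092 to 0.024 for Cyp2d22 and -0.032 to 0.24 for Cyp2w1. In double KO against SMRT KO livers they were -0.083 to 0.023 for Cyp2a12, -0.010 to 0.12 for Cyp2a4, -0.077 to 0.13 for Cyp2b9, -0.15 to 0.055 for Cyp2c40, -0.029 to 0.0040 for Cyp2c50 and -0.0098 to 0.064 for Cyp2s1. Under other settings the sign changed in SMRT KO against control livers for Cyp2c55 with the mean of its probe sets (0.10), for Cyp2d10 after cyclic loess (0.0067), and with array weights for Cyp2d22 (-0.0013), Cyp2r1 (-0.034) and Cyp2u1 (-0.068). The causes were not tested.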
